A study of Mus musculus with 26 samples.

Results

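The 9 genes described here encode transcription factors of the stem and early progenitor cell programme of the bone marrow. They were chosen by name and comprise the Hox genes Hoxa3, Hoxa5, Hoxa7, Hoxa9, Hoxa10 and Hoxb4, the Hox partner Meis1, and the stem cell regulators Mecom and Hlf. Each matched 1 Ensembl identifier among the 52636 genes listed in the deposited files. Bulk RNA sequencing had been done on mouse granulocyte-macrophage progenitors (GMPs), common myeloid progenitors (CMPs) and bone marrow-derived mast cells (BMMCs). Each cell type came from wild-type (WT) mice and from NSP4 knockout (KO) littermates.

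NSP4 is a serine protease of myeloid granules that is encoded by Prss57. The KO is a germline deletion of exon 2 of Prss57, made by gene targeting in C57BL/6N embryonic stem cells, so every cell of these mice carries it. GMPs and CMPs were sorted from the bone marrow of female mice as lineage-negative cells that lacked SCA-1 and carried CD117 and CD34. CD16/32 was high on GMPs and low on CMPs. BMMCs were grown from sorted GMPs with the cytokines IL-3 and SCF, and their labels give male mice and a second sequencing run. The mice were matched for age and were young adults where the methods, those for flow cytometry, give an age. There were 4 libraries in each of the 4 progenitor groups (WT CMP, KO CMP, WT GMP, KO GMP) and 5 in each BMMC group. The labels number the libraries of a group without tying a number to a mouse, and p-values therefore measure the spread between these libraries.

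Hox proteins bind DNA through a homeodomain and are encoded in clusters in which the order of the genes along the chromosome follows their order of use along the body axis. In the bone marrow, genes of the HoxA and HoxB clusters are active in stem and early progenitor cells and are shut down as cells mature. Hox proteins bind DNA with partners of the TALE class, the PBX and MEIS proteins. Meis1 together with Hoxa9 drives self-renewal and is a well known cause of acute myeloid leukaemia in mice. Mecom, which encodes EVI1, and Hlf, a PAR bZIP factor, are both known for their roles in stem cell maintenance.

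The promoters of 4 members are shown because these genes parted from one another in the comparisons given further on. Hoxa9 and Hoxa10 are neighbours that differed in GMPs, Hoxb4 and Hoxa9 differed in BMMCs, and Meis1 is their partner. The windows run from 250 bases before to 50 bases after each RefSeq start on GRCm38.p6. All 9 members have at least 1 of the 32851 windows in the table, and Hoxa10 and Mecom have 2 each. Capitals mark CG dinucleotides, and the sequences follow the strand of the gene. The windows are, in order, chr6:52227321-52227620 (minus strand), chr6:52240805-52241104 (minus), chr6:52234890-52235189 (minus), chr11:96318017-96318316 (plus) and chr11:19018920-19019219 (minus).
Hoxa9: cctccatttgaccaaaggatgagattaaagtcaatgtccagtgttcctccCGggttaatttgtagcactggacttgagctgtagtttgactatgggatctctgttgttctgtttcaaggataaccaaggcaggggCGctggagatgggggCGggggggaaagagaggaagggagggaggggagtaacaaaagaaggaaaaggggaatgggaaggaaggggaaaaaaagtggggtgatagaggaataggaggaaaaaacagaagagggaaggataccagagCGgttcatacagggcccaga
Hoxa10, first start: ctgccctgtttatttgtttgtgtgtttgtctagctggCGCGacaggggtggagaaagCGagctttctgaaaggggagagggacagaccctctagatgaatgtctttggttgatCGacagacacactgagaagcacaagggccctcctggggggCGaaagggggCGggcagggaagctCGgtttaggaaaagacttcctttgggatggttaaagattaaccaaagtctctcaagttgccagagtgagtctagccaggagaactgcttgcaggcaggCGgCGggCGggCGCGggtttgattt
Hoxa10, second start: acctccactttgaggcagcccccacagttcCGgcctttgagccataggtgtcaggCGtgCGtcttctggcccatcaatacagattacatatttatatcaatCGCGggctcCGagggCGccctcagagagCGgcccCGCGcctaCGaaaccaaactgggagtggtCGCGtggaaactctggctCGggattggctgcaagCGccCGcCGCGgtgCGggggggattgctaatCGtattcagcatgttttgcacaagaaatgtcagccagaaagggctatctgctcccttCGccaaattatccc
Hoxb4: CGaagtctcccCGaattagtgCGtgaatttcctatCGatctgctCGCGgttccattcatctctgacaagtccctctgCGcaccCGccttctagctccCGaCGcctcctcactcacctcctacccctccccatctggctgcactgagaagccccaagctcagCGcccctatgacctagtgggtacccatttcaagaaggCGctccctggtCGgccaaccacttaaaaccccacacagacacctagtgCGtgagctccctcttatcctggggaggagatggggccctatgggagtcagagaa
Meis1: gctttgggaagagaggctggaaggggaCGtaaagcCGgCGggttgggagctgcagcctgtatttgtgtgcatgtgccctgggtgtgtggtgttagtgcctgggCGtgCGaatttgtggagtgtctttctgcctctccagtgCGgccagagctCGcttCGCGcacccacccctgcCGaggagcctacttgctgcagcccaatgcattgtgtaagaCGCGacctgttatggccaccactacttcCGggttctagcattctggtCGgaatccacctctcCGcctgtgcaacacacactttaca

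The Hoxa9 window held 4 CG dinucleotides, and 31.4% of all windows held fewer. The Hoxa10 windows held 12 and 21, with 60.4% and 75.2% of all windows holding fewer. Hoxb4 had 14 and Meis1 had 15. Among the other members the count ran from 9 (Hoxa7 and the second Mecom window) to 30 (Hlf). Exact matches to 6 motifs were sought on both strands. The MEIS site TGACAG was found in the windows of Hoxa3 and Mecom and in 19.2% of all windows. The PBX-HOX site TGATNNAT was found in 1 Mecom window and in 8.85% of all windows. The CCAAT box, spelled CCAAT, was found in Hoxa5, Hoxa10, Meis1 and Mecom and in 37.4% of all windows, and the TATA box TATAAA in Hoxa10 and in 13.6%. No member window held the E-box CACGTG (7.15% of all windows) or the PAR bZIP site TTACGTAA (0.119%). These are matches of letters, and binding was not measured.

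Libraries held 32078404 to 53264762 reads in genes for CMPs, 35501671 to 51497962 for GMPs and 18627626 to 28647216 for BMMCs. Prss57 itself had 2261 to 26556 reads in the WT progenitor libraries and 1 to 25 in the KO progenitor libraries. It was already near the floor in WT BMMCs (2 to 27 reads) and had 0 reads in all 5 KO BMMC libraries. In the progenitors each library thus had the Prss57 level that its label calls for, and in BMMCs the gene says little about the labels. Of the marker lists, all 8 granulocyte-macrophage markers were higher in WT GMPs than in WT CMPs and all 8 erythroid and megakaryocyte markers were lower. All 7 mast cell markers were called higher in WT BMMCs than in WT GMPs, but so were all 7 macrophage and dendritic cell markers. Of all genes, 27.3% were called higher there. The mast cell markers Mcpt4 and Tpsb2 passed the filter through the BMMC libraries, where they are high, and had to differ. Of the 3 lymphoid markers tested in WT progenitors, 1 was lower in GMPs.

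Levels are given as normalized RPKM, which is reads scaled by the length of the gene model and by library size, after the authors' size factor correction, and can be compared between genes. In WT CMPs the members fell into 3 ranges. Meis1 (8.14 ± 0.960, SD, n = 4), Hoxa7 (6.82 ± 0.234), Hoxa9 (6.17 ± 0.681) and Hlf (5.69 ± 0.753) were the highest. Hoxa10 (1.64 ± 0.201) and Hoxb4 (1.42 ± 0.190) followed, and Hoxa5, Mecom and Hoxa3 lay below 1. In this order Hoxa7 and Hoxa9, Hoxa9 and Hlf, Hoxa10 and Hoxb4, Hoxa5 and Mecom, and Mecom and Hoxa3 had ranges that overlapped. In WT GMPs Hoxa7 (7.24 ± 0.981) and Hoxa9 (5.56 ± 1.05), with overlapping ranges, were the 2 members with a mean above 5. Hlf, Hoxb4 and Meis1 then lay together at means of 2.05 to 2.17, Hoxa5, Hoxa3 and Mecom followed, and Hoxa10 was last at 0.0975 ± 0.0618. In WT BMMCs (n = 5) the order was different again, with Meis1 (9.33 ± 1.06), Hoxb4 (4.23 ± 0.415), Mecom (3.34 ± 0.810) and Hlf (2.19 ± 0.532) on top and all 5 HoxA members at or below 0.322.

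**Figure D1:**
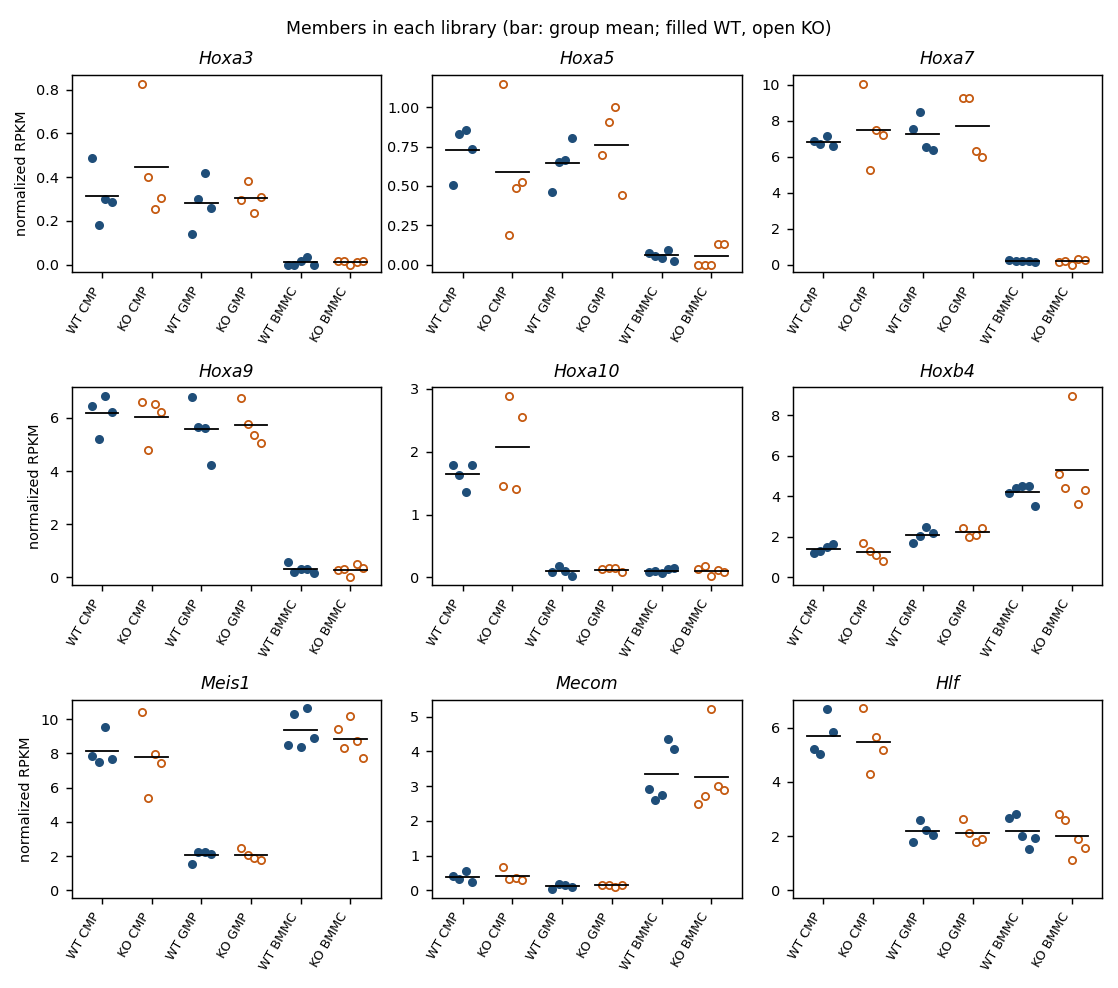
Normalized RPKM of each member in each of the 26 libraries. Each point is 1 library (filled, WT; open, KO), the bar is the group mean, and each panel has its own linear axis. Hoxa10 sits at 1.36 to 2.88 in the CMP libraries and at 0.181 or less elsewhere, whereas Hoxa7 and Hoxa9 drop only in BMMCs.

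The first comparison asked how the members differed between the 2 progenitors. Within the HoxA cluster, Hoxa10 was 16.9-fold lower in WT GMPs than in WT CMPs, while its neighbours Hoxa7 and Hoxa9 differed by less than the spread between libraries. Meis1 was 3.98-fold lower and Hlf 2.62-fold lower in GMPs. Hoxb4 was the 1 member with a higher mean level in GMPs whose groups did not overlap, at 1.48-fold. Of the 9 members, 3 passed the threshold (edgeR's quasi-likelihood test, with an adjusted p below 0.01 after Benjamini and Hochberg and at least a 2-fold difference), all of them lower in GMPs. Of all 14967 genes tested, 12.8% passed, 6.28% with a higher and 6.53% with a lower level in GMPs. At an adjusted p under 0.05 and no limit on the fold, 5 members passed (Hoxb4 and Mecom besides), against 37.8% of all genes. The median log2 difference was -0.16 over the members and -0.02 over all genes.

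Hoxa10 encodes a posterior Hox protein, and its forced expression is known to disturb myeloid differentiation. In WT CMPs it stood at 1.78, 1.63, 1.36 and 1.80 normalized RPKM. In WT GMPs it stood at 0.0811, 0.179, 0.101 and 0.0297, from 5 to 34 reads a library. The lowest CMP library thus lay far above the highest GMP library. The log2 difference was -4.03 (SE 0.41, 95% interval -4.93 to -3.13, edgeR adjusted p 4.14e-05). The ratio of Hoxa10 to Hoxa9 within a library needs no scaling between libraries. It was 0.200 to 0.313 in WT CMPs and 0.00704 to 0.0317 in WT GMPs, so these ranges did not overlap either.

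Hoxa7 and Hoxa9 are the HoxA genes most used by myeloid progenitors, and Hoxa9 is required for normal progenitor numbers. Hoxa9 stood at 6.44, 5.22, 6.80 and 6.24 in WT CMPs and at 6.77, 5.64, 5.62 and 4.21 in WT GMPs. Hoxa7 stood at 6.87, 6.72, 7.13 and 6.58 in WT CMPs and at 7.56, 8.49, 6.55 and 6.37 in WT GMPs. The groups overlapped for both genes. The log2 differences were -0.13 (SE 0.16) for Hoxa9 and 0.10 (SE 0.13) for Hoxa7, with edgeR adjusted p of 0.521 and 0.543. Their 95% intervals ran from 0.713-fold to 1.16-fold for Hoxa9 and from 0.882-fold to 1.31-fold for Hoxa7.

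Hoxa3 and Hoxa5 were weakly expressed in both progenitors, at 17 to 59 and 41 to 102 reads a WT library. Hoxa5 averaged 0.730 ± 0.161 in WT CMPs and 0.646 ± 0.140 in WT GMPs. Hoxa3 averaged 0.313 ± 0.128 and 0.279 ± 0.115. Neither passed the test, and the intervals of Hoxa3 (0.469-fold to 1.76-fold) and Hoxa5 (0.575-fold to 1.39-fold) show how little these depths resolve.

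Hoxb4, a HoxB gene known for expanding stem cells when overexpressed, stood at 1.21, 1.33, 1.50 and 1.64 in WT CMPs. It stood at 1.72, 2.03, 2.49 and 2.19 in WT GMPs, every value above the CMP values. The log2 difference was 0.59 (SE 0.19, edgeR adjusted p 0.0301), which misses the threshold.

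Meis1 encodes the TALE homeodomain partner of Hoxa9. It stood at 7.84, 7.50, 9.56 and 7.65 in WT CMPs and at 1.55, 2.27, 2.22 and 2.15 in WT GMPs. The log2 difference was -1.97 (SE 0.16, edgeR adjusted p 8.44e-06). The ratio of Meis1 to Hoxa9 within a library was 1.22 to 1.44 in WT CMPs and 0.228 to 0.510 in WT GMPs. Hlf, whose protein marks stem and multipotent cells, stood at 5.20, 5.02, 6.69 and 5.84 in WT CMPs and at 1.80, 2.61, 2.24 and 2.03 in WT GMPs. Its log2 difference was -1.37 (SE 0.16, edgeR adjusted p 9.95e-05). Mecom stood at 0.407, 0.333, 0.553 and 0.231 in WT CMPs and at 0.0492, 0.184, 0.165 and 0.107 in WT GMPs. Its groups did not overlap, but the log2 difference of -1.58 (SE 0.42, edgeR adjusted p 0.0143) missed the threshold. DESeq2 called Mecom at an adjusted p of 0.000882, and over all alternatives its adjusted p ranged from 0.000882 to 0.0449.

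The groups did not overlap for 5 of the 9 members (Hoxa10, Hoxb4, Meis1, Mecom and Hlf), against 31.5% of all genes tested. For each of these 5 the exact two-sided permutation test gave p = 0.0286, the smallest that 4 against 4 libraries allow. In bulk samples, fewer cells of a type and less RNA per cell cannot be told apart. CMP libraries also held erythroid and megakaryocyte markers: the summed level of the 8 markers was 1011 to 1653 in WT CMPs and 58.2 to 107 in WT GMPs. The summed level of the 7 stem and multipotent cell markers was 16.7 to 21.6 in WT CMPs and 2.94 to 5.41 in WT GMPs. In GMPs 4 of these 7 were called lower, against 6.53% of all genes. Robo4, among the 4, passed the filter only through the CMP libraries and had to differ. The part of these cells in the differences of Hoxa10, Meis1, Mecom and Hlf was not tested.

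KO GMPs and KO CMPs, which share no library with the WT comparison, gave the same contrast a separate set of samples. Of the 9 members, 3 passed the threshold, the same 3 genes as in WT, against 8.42% of the 14959 genes tested, 4.04% higher and 4.38% lower in GMPs. At an adjusted p under 0.05 and no limit on the fold it was 5 members, against 21.5% of all genes. Hoxa10 stood at 1.45, 2.88, 1.41 and 2.55 in KO CMPs and at 0.132, 0.145, 0.148 and 0.0825 in KO GMPs. The log2 difference was -3.95 (SE 0.34, edgeR adjusted p 0.000128). Meis1 stood at 10.4, 5.41, 7.94 and 7.46 in KO CMPs and at 2.49, 2.06, 1.92 and 1.78 in KO GMPs, a log2 difference of -1.88 (SE 0.22, edgeR adjusted p 0.000556). Hlf stood at 6.73, 4.29, 5.64 and 5.19 in KO CMPs and at 2.64, 2.10, 1.77 and 1.90 in KO GMPs, a log2 difference of -1.34 (SE 0.20, edgeR adjusted p 0.00171). Without KO GMP replicate 3 the adjusted p of Hlf was 0.0101 and it was no longer called.

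In these KO libraries Hoxa7 had a log2 difference of 0.07 (SE 0.24) and Hoxa9 one of -0.04 (SE 0.18) by edgeR, both with groups that overlapped. Hoxb4 was again higher in all 4 GMP libraries (1.98 to 2.45) than in any CMP library (0.805 to 1.72), with a log2 difference of 0.89 (SE 0.25, edgeR adjusted p 0.0323). It passed the threshold when KO CMP replicate 1 was left out, with a log2 difference of 1.11. Mecom again missed the threshold (log2 difference -1.50, SE 0.33, edgeR adjusted p 0.0116) and passed it without KO CMP replicate 2 (-1.62). DESeq2 (adjusted p 0.000133) and a joint edgeR fit of all 26 libraries (adjusted p 0.00176) also called it, and over all alternatives its adjusted p ranged from 0.000133 to 0.0452. The groups did not overlap for 5 of the 9 members, the same 5 as in WT, against 28.5% of all genes tested.

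**Figure D2:**
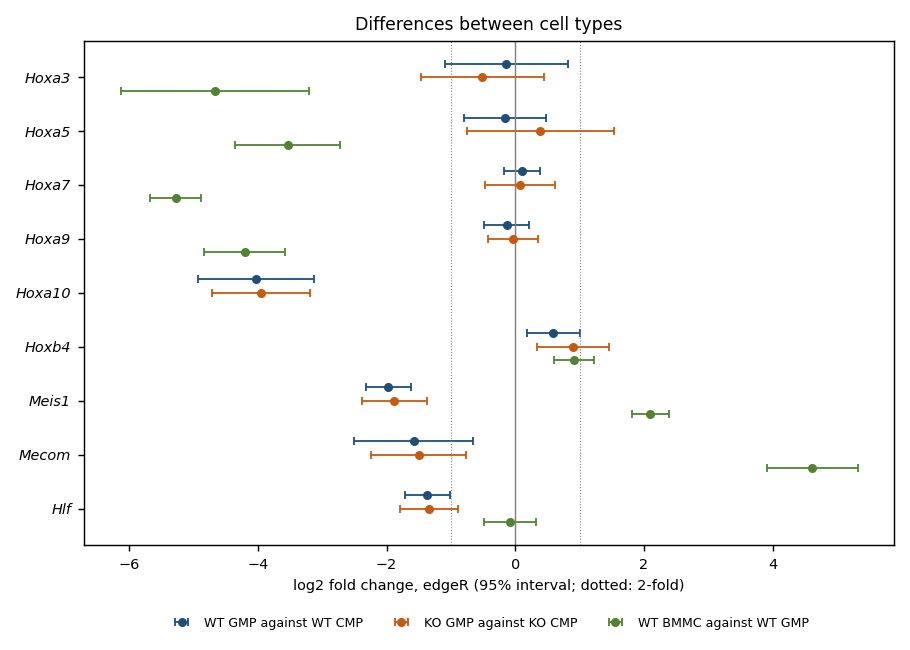
Log2 fold change of each member by edgeR, with its 95% interval, for GMPs against CMPs in WT (blue) and KO (orange) and for WT BMMCs against WT GMPs (green). Dotted lines mark a 2-fold difference, and Hoxa10 has no green point because it did not pass the filter on low counts there. The blue and orange points lie at about -4 for Hoxa10 and near 0 for Hoxa7 and Hoxa9. They lie further apart for Hoxa5 (-0.16 in WT, 0.39 in KO) and Hoxa3 (-0.14 and -0.51), whose intervals are wide.

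Among the KO CMP libraries, 2 lay at the ends of the range of many members. KO CMP replicate 2 had the lowest Hoxa5 (0.190), Hoxa7 (5.25), Hoxa9 (4.80), Meis1 (5.41) and Hlf (4.29) of the 8 CMP libraries and the highest Hoxa10 (2.88). Its summed erythroid and megakaryocyte markers were 3005, against 1011 to 1653 in the other 7 CMP libraries. KO CMP replicate 1 had the highest Hoxa3 (0.827), Hoxa5 (1.15), Hoxa7 (10.1), Meis1 (10.4), Mecom (0.676) and Hlf (6.73) of the 8. Its erythroid and megakaryocyte sum of 1060 lay within the range of the others. Whether the marker content had a part in these values was not tested.

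The second question was whether loss of NSP4 changed the members. No member passed the threshold in any of the 3 cell types. Among all genes, 0.00681% of 14689 passed in GMPs, 0.0067% of 14916 in CMPs and 0.0% of 13938 in BMMCs. The 1 gene in GMPs and the 1 gene in CMPs was Prss57 itself, with log2 differences of -10.12 and -11.52, and BMMCs had 0. DESeq2 called 2, 3 and 0 genes. At an unadjusted p under 0.05 edgeR had 119 genes in GMPs, 76 in CMPs and 332 in BMMCs, with 0 members among them in any cell type. The groups overlapped for all 9 members in all 3 cell types, where 0.994% of genes in GMPs, 0.818% in CMPs and 0.717% in BMMCs did not overlap.

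In GMPs the member log2 differences between KO and WT lay between -0.04 (Hlf) and 0.38 (Hoxa10). The intervals were narrow for the better expressed members. They ran from 0.811-fold to 1.31-fold for Hoxa9, from 0.815-fold to 1.39-fold for Hoxa7, from 0.831-fold to 1.36-fold for Hoxb4, from 0.794-fold to 1.28-fold for Meis1 and from 0.755-fold to 1.25-fold for Hlf. They were wide for Hoxa10 (0.588-fold to 2.87-fold) and Mecom (0.615-fold to 2.08-fold), which had few reads in GMPs. A 2-fold change lies outside the first 5 intervals and inside those of Hoxa10 and Mecom.

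In CMPs the differences lay between -0.30 (Hoxa5) and 0.51 (Hoxa3). The Hoxa3 value rested on KO CMP replicate 1, and without that library it was -0.03. Hoxa9 averaged 6.04 ± 0.842 in KO and 6.17 ± 0.681 in WT, with an interval of 0.737-fold to 1.27-fold. Meis1 averaged 7.80 ± 2.05 in KO and 8.14 ± 0.960 in WT, with an interval of 0.680-fold to 1.32-fold. Hoxa10 averaged 2.07 ± 0.755 in KO and 1.64 ± 0.201 in WT, with an interval of 0.817-fold to 1.86-fold.

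An interaction term over all 16 progenitor libraries tested whether CMPs and GMPs responded differently to the genotype. By edgeR 0.0% of 15900 genes passed at an adjusted p under 0.01, and DESeq2 and limma voom also called 0. At an unadjusted p under 0.05 there were 169 genes, 0 of them members.

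In BMMCs 6 members passed the filter on low counts in this comparison. Hoxa3, Hoxa5 and Hoxa10 did not, having at most 2, 7 and 12 reads a library. Meis1 averaged 8.86 ± 0.960 in KO and 9.33 ± 1.06 in WT (n = 5 each), with an interval of 0.816-fold to 1.10-fold. Mecom averaged 3.26 ± 1.11 and 3.34 ± 0.810, with an interval of 0.680-fold to 1.39-fold. Hoxb4 averaged 5.29 ± 2.12 and 4.23 ± 0.415, and its log2 difference of 0.31 (SE 0.23) fell to 0.04 without KO BMMC replicate 3.

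**Figure D3:**
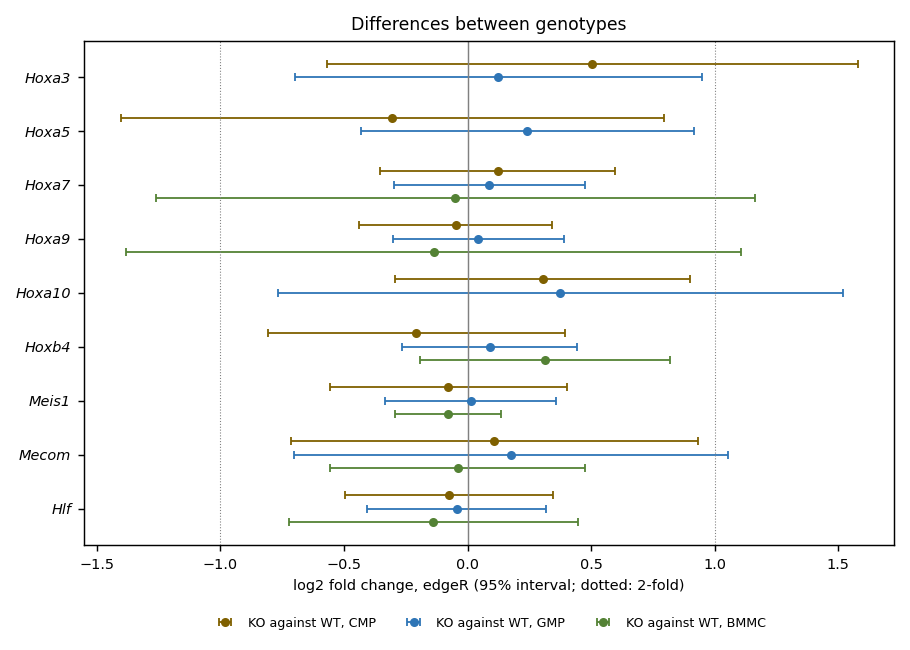
Log2 fold change of KO against WT by edgeR, with its 95% interval, for each member in CMPs, GMPs and BMMCs. Dotted lines mark a 2-fold difference, and Hoxa3, Hoxa5 and Hoxa10 have no BMMC point because they did not pass the filter there. Every interval includes 0.

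KO BMMC replicate 3 stood apart from the other 9 BMMC libraries in both clusters. It had 0 reads for Hoxa7 and 1 read each for Hoxa9 and Hoxa10, where the other 9 libraries had 7 to 21 reads of Hoxa7, 12 to 45 of Hoxa9 and 5 to 12 of Hoxa10. It also had 0 reads for Hoxa3 and Hoxa5, as did 3 and 2 of the other BMMC libraries. It also had the lowest Hlf of the 10 (1.11, others 1.54 to 2.82). At the same time its Hoxb4 (8.97, others 3.54 to 5.10) and Mecom (5.22, others 2.48 to 4.36) were the highest. Meis1, at 10.2, lay within the range of the others (7.71 to 10.6). The summed mast cell markers were 75290 in this library and 24856 to 46310 in the others, and the macrophage and dendritic cell markers were 105 against 1209 to 2205. The part of other cells in the BMMC values of the members was not tested. Without this library the KO BMMC means were 0.356 for Hoxa9, 4.36 for Hoxb4, 2.77 for Mecom and 2.22 for Hlf (n = 4).

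The last comparison set WT BMMCs against the WT GMPs, the cell type from which such cultures are started. Sequencing run, sex and cell type cannot be told apart here. Hoxa7 and Hoxa9 were at a small fraction of their GMP level in the mast cells, Hoxa10 was low in both cell types, Meis1 and Mecom were far higher, and Hoxb4 was moderately higher. Of the 8 members tested, 2 were called higher and 4 lower, where 51.7% of the 14754 genes tested were called, 27.3% higher and 24.4% lower. A share of 6 in 8 is thus to be read against a majority of all genes. Hoxa3 and Hoxa5 passed the filter only through the GMP libraries, where they are high, and had to differ.

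Hoxa7 fell from 7.24 ± 0.981 (n = 4) in WT GMPs to 0.267, 0.182, 0.210, 0.181 and 0.153 in the 5 WT BMMC libraries. Its log2 difference was -5.28 (SE 0.18, edgeR adjusted p 1.41e-10). Hoxa9 stood at 0.589, 0.218, 0.311, 0.335 and 0.158 in WT BMMCs, a log2 difference of -4.20 (SE 0.29, edgeR adjusted p 5.05e-08). Hoxa5 stood at 0.0226 to 0.0959, a log2 difference of -3.54 (SE 0.37, edgeR adjusted p 2.17e-06). Hoxa5 and Hoxa3 had to differ through the filter, so their values here only describe the levels. Hoxa3 had 3 reads in all over the 5 WT BMMC libraries against 155 over the 4 WT GMP libraries. The ratio per mapped read was 0.0302, with an exact 95% counting interval of 0.00616 to 0.0898. Hoxa10 was near its floor in both cell types, at 5 to 11 reads in WT BMMCs and 5 to 34 in WT GMPs. It did not pass the filter, its levels overlapped, and the exact two-sided permutation test gave p = 0.817.

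Meis1 stood at 8.49, 10.3, 8.36, 10.6 and 8.89 in WT BMMCs, all above the 1.55 to 2.27 of WT GMPs and near the 7.50 to 9.56 of WT CMPs. Its log2 difference from GMPs was 2.10 (SE 0.13, edgeR adjusted p 2.35e-08). Mecom stood at 2.93, 2.60, 2.75, 4.36 and 4.06, against 0.184 or less in WT GMPs and 0.553 or less in WT CMPs. Its log2 difference from GMPs was 4.61 (SE 0.32, edgeR adjusted p 6.24e-08). Hoxb4 stood at 4.17, 4.43, 4.54, 4.49 and 3.54, with no overlap with GMPs. Its log2 difference was 0.91 (SE 0.14, edgeR adjusted p 6.14e-05), under the 2-fold limit and so not called. Hlf averaged 2.19 ± 0.532 and 2.17 ± 0.346, a log2 difference of -0.08 with an interval of 0.716-fold to 1.25-fold. The groups did not overlap for 7 of the 8 members tested, against 75.3% of all genes tested. Hoxa3 and Hoxa5 are among these 7 and had to differ. For Hoxa7, Hoxa9, Hoxb4, Meis1 and Mecom the exact two-sided permutation test gave p = 0.00794, the smallest that 5 against 4 libraries allow.

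BMMC libraries also differed from GMPs in their markers of other cells. The summed mast cell markers were 30790 to 46310 in WT BMMCs and 362 to 490 in WT GMPs. The summed macrophage and dendritic cell markers were 1209 to 1891 and 71.5 to 81.7, and the stem and multipotent cell markers 165 to 353 and 2.94 to 5.41. Of the 7 stem and multipotent cell markers 2 were called higher in WT BMMCs, Ly6a (means of 221 and 1.57) and Procr (10.5 and 0.854). Ctnnal1 was called lower, Esam was not called, and the other 3 did not pass the filter. The summed erythroid and megakaryocyte markers were 868 to 1115 in WT BMMCs and 58.2 to 107 in WT GMPs, with 4 of the 8 called higher (Gata1, Itga2b, Pf4 and Vwf) and 4 lower. Of all genes, 27.3% were called higher and 24.4% lower in this comparison. The marker genes named here were chosen after their values were seen. Granulocyte-macrophage markers fell to 985 to 1447 from 29875 to 37680. The part of these cells in the BMMC levels of Meis1, Mecom and Hoxb4 was not tested.

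The shift between clusters was also measured over all Hox genes by summing their levels within a library. The 11 HoxA genes made up 88.1% ± 1.44 (SD, n = 4) of the summed Hox level in WT CMPs and 86.1% ± 2.57 in WT GMPs. In WT BMMCs (n = 5) they made up 11.4% ± 3.32, and the 10 HoxB genes made up 87.2% ± 3.40. The HoxA sum fell from 15.1 ± 1.58 in WT GMPs to 0.848 ± 0.268 in WT BMMCs, and the HoxB sum was 2.40 ± 0.338 and 6.51 ± 0.854. The 9 HoxC genes summed to at most 0.178 in any library and the 9 HoxD genes to at most 0.0367.

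Within the clusters, the members held most of the signal. Among the 33 other Hox genes 4 passed the filter on low counts in WT progenitors and 1 was called, the anterior gene Hoxb2, which was lower in GMPs (log2 difference -2.54, SE 0.50, edgeR adjusted p 0.00301). Of all genes, 6.53% were called lower there. Hoxb2 had at most 12 reads in a WT GMP library and did not pass the filter among GMP libraries alone. It passed through the CMP libraries, where it is high, and had to differ. In KO progenitors Hoxb2 had a log2 difference of -2.72 and an edgeR adjusted p of 0.0208, which misses the threshold. Hoxa4, which lies within the span of the Hoxa3 model, averaged 1.13 in WT CMPs, 0.881 in WT GMPs and 0.0279 in WT BMMCs. In WT BMMCs 2 other HoxB genes were called higher than in WT GMPs and Hoxa4 was called lower. They were Hoxb3, next to Hoxb4, which averaged 0.194 in GMPs and 1.06 in BMMCs, and Hoxb9, which had 0 reads in all WT GMP libraries and 16 to 63 reads in WT BMMC libraries. Hoxb9, and Hoxa4 with at most 2 reads in a WT BMMC library, passed the filter through the group where they are high and had to differ. Hoxa11 and Hoxa13, at the posterior end of the HoxA cluster, were at 0 on average in all 3 WT cell types, so Hoxa10 was the most posterior HoxA gene detected. Hoxb3, Hoxb9 and Hoxa4 are named here after their values were seen.

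**Figure D4:**
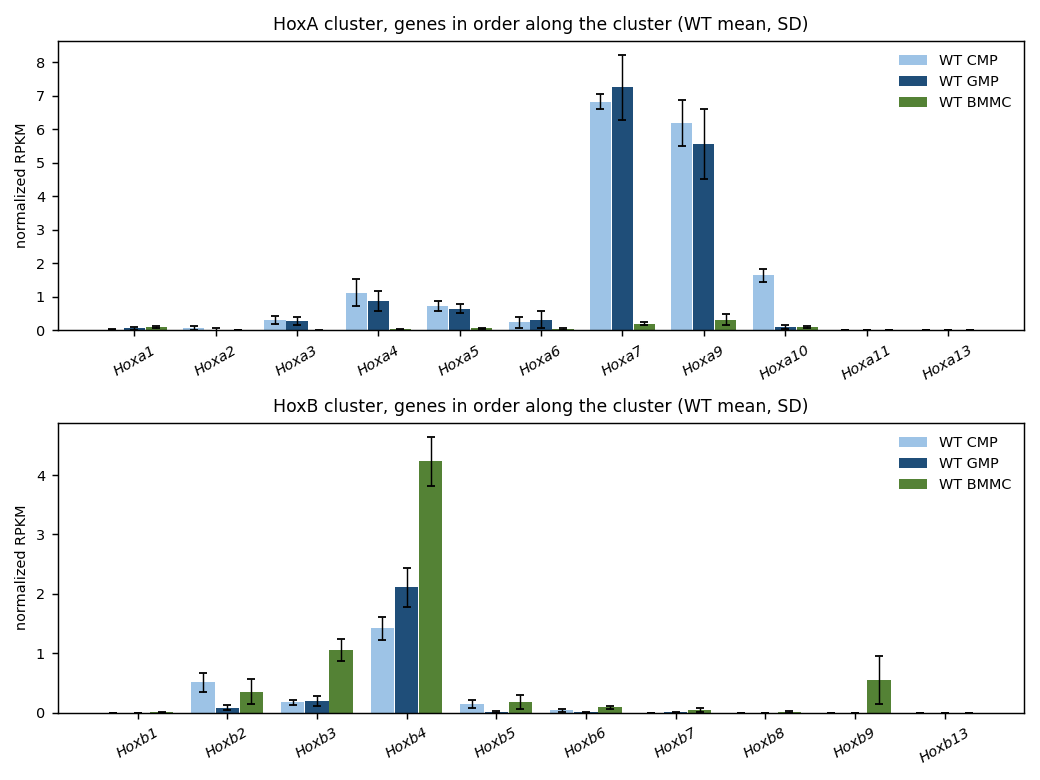
Mean normalized RPKM (bars) with SD (error bars) of the HoxA genes (top) and HoxB genes (bottom) in WT CMPs (n = 4), WT GMPs (n = 4) and WT BMMCs (n = 5), with genes in order along each cluster. Hoxa7 and Hoxa9 are high in both progenitors, Hoxa10 has a tall bar in CMPs alone, and in BMMCs the tall bars are those of Hoxb4 and Hoxb3.

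Regulators of the members were followed as fixed lists. The MLL and DOT1L machinery keeps Hox genes active. All 9 of its genes on the list were tested, with 1 higher and 1 lower in WT GMPs, where 6.28% and 6.53% of all genes were. Mllt3, the AF9 subunit known to support stem cell self-renewal, averaged 2.69 in WT CMPs and 0.884 in WT GMPs (log2 difference -1.58, edgeR adjusted p 9.07e-05). Aff1, an elongation factor of the same machinery, averaged 4.48 and 13.4 (log2 difference 1.60, edgeR adjusted p 0.00187). Both calls recurred in KO progenitors. Polycomb proteins keep Hox genes silent, and 0 of the 12 on the list were called in WT or KO progenitors by edgeR. At an unadjusted p under 0.05 there were 6 in WT and 4 in KO, where 7296 of 14967 and 5993 of 14959 genes passed. DESeq2 called 0 and 1 of the 12, and 2279 and 2156 of all genes. In WT BMMCs against WT GMPs 4 of the 12 were called higher and 2 lower, where 51.7% of all genes were called.

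Of the 15 other stem cell transcription factors, 0 were higher and 5 lower in WT GMPs, and 4 were lower in KO GMPs. Of all genes, 6.28% were called higher and 6.53% lower in WT, and 4.38% lower in KO. Nkx2-3 and Tcf15, called in both, passed the filter only through the CMP libraries, where they are high, and had to differ. The other calls were Gfi1b, Tal1 and Hmga2 in WT, and Gfi1b and Tal1 in KO. Gfi1b, a repressor needed in erythroid and megakaryocyte cells, averaged 63.0 in WT CMPs and 6.23 in WT GMPs (log2 difference -3.32, edgeR adjusted p 5.13e-07). Tal1, a master regulator of blood stem cells and erythroid cells, averaged 53.2 and 13.0 (log2 difference -2.02, edgeR adjusted p 1.67e-06). Hmga2 averaged 0.614 and 0.154, and Tcf15, a factor of quiescent stem cells, 1.30 and 0.0204. Gfi1b and Tal1 are also used by the erythroid and megakaryocyte cells whose markers were high in the CMP libraries.

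Of 9 genes known to lie downstream of Hoxa9 and Meis1, 1 was higher and 2 were lower in WT GMPs, against the same 6.28% and 6.53% of all genes. In KO GMPs 0 were higher and 2 lower, against 4.04% and 4.38% of all genes. Flt3, a cytokine receptor of early progenitors, averaged 36.4 in WT CMPs and 5.73 in WT GMPs (log2 difference -2.65, edgeR adjusted p 1.73e-06). Trib2, a pseudokinase that can drive leukaemia, averaged 14.8 and 0.526 (log2 difference -4.78, edgeR adjusted p 1.73e-06). Id2, an inhibitor of helix-loop-helix factors, averaged 1.02 and 2.17. Between KO progenitors Id2 was not called (log2 difference 0.99, edgeR adjusted p 0.0489). In WT BMMCs Trib2 averaged 7.86 and Flt3 0.136, and of the 9 genes 4 were called higher and 4 lower than in WT GMPs, where 51.7% of all genes were called. The 3 PAR bZIP relatives of Hlf had 0 calls in either progenitor comparison by edgeR and 2 higher in WT BMMCs, where 27.3% of all genes were called higher. At an unadjusted p under 0.05 all 3 passed in WT progenitors and 2 in KO, where 7296 of 14967 and 5993 of 14959 genes passed. DESeq2 called 0 and 1 of the 3, and 2279 and 2156 of all genes. Between the genotypes edgeR, limma voom and DESeq2 called 0 genes of these lists and the marker lists in any cell type, among 91 tested in GMPs, 95 in CMPs and 86 in BMMCs. At an unadjusted p under 0.05 edgeR had 1, 0 and 2 of them, against 0.81%, 0.51% and 2.38% of all genes.

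The genes whose pattern over the 26 libraries lay closest to a member were found by the root mean square (RMS) difference of centred log2 levels among 13477 genes. For Hoxa10 they were Proser2 (RMS 0.413), Acmsd (0.429) and Fbxl13 (0.437), all at means above 1 in CMPs and at 0.166 or less elsewhere. For Meis1 they were Pear1 (0.215), Dlg3 (0.268) and Clstn1 (0.289), which were low in GMPs. For Hoxb4 they were Dglucy (0.226), Aacs (0.236) and Fam3c (0.241), with levels that climbed from CMPs over GMPs to BMMCs. For Hoxa9 they were Pomgnt2 (0.270), Frat2 (0.287) and Xk (0.293), for Hoxa7 Tie1 (0.380), Sh2d5 (0.380) and Prr5 (0.386), and for Hlf Ppm1l (0.277), Armcx1 (0.323) and Cep41 (0.323). These lists depend on the pseudocount. With 1 in place of 0.1 normalized RPKM, Acmsd stayed among the closest 3 of Hoxa10 and Pear1 among those of Meis1, and no other gene kept its place.

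On GRCm38 (GENCODE M21), Hoxa3 (chr6:52169062-52213336), Hoxa5 (chr6:52201754-52204587), Hoxa7 (chr6:52214491-52221854), Hoxa9 (chr6:52223100-52231089) and Hoxa10 (chr6:52231197-52240854) lie in 1 cluster on the minus strand, where the Hoxa3 model spans the whole of Hoxa5. Hoxb4 (chr11:96318267-96321638, plus strand), Meis1 (chr11:18879817-19018985, minus) and Hlf (chr11:90336536-90390895, minus) share chromosome 11, and Mecom (chr3:29951296-30548008, minus) lies alone. Some exon bases are shared with other annotated genes, and whether counting used the strand is not given in the sources used here. For Hoxa3 27.1% of exon bases are shared, for Hoxa7 20.4% and for Meis1 18.3%. The antisense gene Gm16140 within Meis1 averaged 2.38 in WT CMPs and 0.0622 in WT GMPs, from at most 155 reads, where Meis1 had 2356 to 4575 reads in WT CMPs. The antisense Hoxaas3, which overlaps Hoxa3 and Hoxa7, had at most 15 reads in any library. Reads of these antisense genes cannot be told apart from those of the members without strand. Hoxa5, Hoxa10, Hoxb4 and Hlf share no exon base with another gene.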

How the data were processed

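RNA of 26 libraries was sequenced with a stranded total RNA kit. The authors aligned single-end reads to GRCm38 with GSNAP and deposited, for each library, the read count of every gene model, which covers uniquely aligned reads within exons. They also deposited normalized RPKM values, which are adjusted by a size factor for each library. The annotation release and the use of strand in counting are not given in the sources used here. The 9 members and all gene lists were chosen with earlier results of these data known.

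Counts were tested with edgeR 4.0.16 (R 4.3.3) by the robust quasi-likelihood test, with TMM normalization and the default filter on low counts. Each comparison was fitted on its own groups over all genes, with Benjamini-Hochberg adjustment. A gene was called where the adjusted p lay below 0.01 and the difference was at least 2-fold, the limits that the study used. For the interaction the limit was the adjusted p alone. The study's own method, limma voom (limma 3.58.1), and DESeq2 1.42.0 were alternatives, as were other normalization, filters, thresholds, a joint fit and leaving out each library. Levels and ratios of means are from normalized RPKM, and exact permutation tests compared group means. The scripts were tested on simulated data.

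Libraries held 18627626 to 53264762 reads, and intervals on reads cover counting error only. Of the 52636 genes listed, 52489 matched GENCODE M21. Named genes were all members, up to 4 called genes of each list with the smallest p in WT GMPs against WT CMPs, genes that overlap a member, the 3 genes closest in pattern to each member at 1 or more normalized RPKM in WT CMPs, and Prss57. Nkx2-3, Mcpt4, Tpsb2 and Robo4 are named for a limit of the filter, and Fcgr3 for its part in the sort. Promoters came from RefSeq. The result of 1 gene list is not reported here.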

Additional observations from a re-analysis of the deposited data

Results flagged for a closer look

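A library far from the others of its group was found in 7 of the 54 combinations of member and group, where chance gives about 1 in 20. Values are in normalized RPKM.

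KO BMMC replicate 3 accounts for 3 of the 7. Its Hoxb4 was 8.97, against 3.64 to 5.10 in the other 4 KO BMMC libraries. Its Mecom was 5.22, against 2.48 to 2.99. Its Hoxa3 was 0, against 0.0138 to 0.0186, which are single reads, so that this last gap is that between 0 reads and 1 read.

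Meis1 and Mecom each stood out in progenitors as well. Meis1 was high in WT CMP replicate 3, at 9.56 against 7.50 to 7.84 in the others, and low in WT GMP replicate 1, at 1.55 against 2.15 to 2.27. Mecom was high in KO CMP replicate 1, at 0.676 against 0.307 to 0.354, and low in KO GMP replicate 3, at 0.109 against 0.151 to 0.156.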

How the results depend on the processing

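The calls of Hoxa10 and Meis1 between progenitors held in WT and KO under every alternative in which they were tested. Mecom, not called in the main fit, passed by DESeq2 (adjusted p 0.000882 in WT and 0.000133 in KO) and in a joint fit of all 26 libraries. Between KO GMPs and KO CMPs, DESeq2 called 2156 genes and the joint fit 2307, against 1259. Leaving out single libraries gave 785 (without KO GMP replicate 3) to 2266 (without KO CMP replicate 1) genes and 2 to 4 members. At an adjusted p under 0.05 with no limit on the fold, 5664 genes and 5 members passed in WT progenitors, 3222 genes and 5 members in KO progenitors, 2 genes between genotypes in GMPs, and 12030 genes between WT BMMCs and WT GMPs. Between genotypes DESeq2 called 2 genes in GMPs and 3 in CMPs, at least 10 reads in every library left 0 in each, and single libraries left out gave 1 to 2 in GMPs. That filter left 3 members called between WT BMMCs and WT GMPs.

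Differences near 0 changed sign when single libraries were left out (log2 ranges). Between WT progenitors Hoxa3 ran from -0.38 to 0.15. Between KO progenitors Hoxa3 ran from -0.70 to 0.0029, Hoxa7 from -0.071 to 0.26 and Hoxa9 from -0.14 to 0.025. Between genotypes in GMPs Hoxa3 ran from -0.092 to 0.39, Hoxa7 from -0.0067 to 0.19, Hoxa9 from -0.058 to 0.16, Meis1 from -0.10 to 0.077, Mecom from -0.083 to 0.42 and Hlf from -0.16 to 0.061. In CMPs Hoxa3 ran from -0.028 to 0.80, Hoxa7 from -0.072 to 0.26, Hoxa9 from -0.13 to 0.049, Meis1 from -0.26 to 0.063, Mecom from -0.26 to 0.33 and Hlf from -0.21 to 0.027. In BMMCs Hoxa7 ran from -0.29 to 0.24, Hoxa9 from -0.43 to 0.19, Mecom from -0.27 to 0.072 and Hlf from -0.29 to 0.0097. Between WT BMMCs and WT GMPs Hlf ran from -0.18 to 0.031.

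Whether replicate numbers pair the libraries was not settled. Deviations from the group means were correlated over genes. The mean correlation of libraries with the same number was 0.133 for WT GMPs against WT CMPs (other numbers -0.0473). It was 0.183 for KO GMPs against KO CMPs (-0.0589) and 0.156 for KO against WT in CMPs (-0.0559). Between genotypes it was -0.0141 in GMPs (0.00898) and -0.0575 in BMMCs (0.0239). In each comparison at least 1 pair of the same number lay under 0.1. With a replicate block 2000 genes were called between WT progenitors and 1311 between KO progenitors, with 3 members in each. The block left 1 gene between genotypes in GMPs, 1 in CMPs and 0 in BMMCs, 0 for the interaction, and 0 members in these. Depth limits Hoxa3, Hoxa5 and Hoxa10 in BMMCs, where they had at most 12 reads.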
